A study of Mus musculus with 8 samples.

Results

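Chromatin accessibility at 10 genes of transforming growth factor beta (TGF-beta) signalling was examined in hippocampal microglia of mice whose growth was restricted in the womb and of control mice. The genes were Ltbp1, Tgfb1, Nrros, Tgfbr1, Tgfbr2, Smad2, Smad3, Smad4, Smad7 and Ski, and all 10 were found among 21887 protein-coding genes of the autosomes, X and Y in RefSeq's GRCm38.p6 annotation, whose coordinates are those of mm10. A locus was taken as the span of a gene with 20 kb on each side, and the 10 loci held 354 of the 180156 peaks in the 8 deposited lists. Merging peaks of different libraries that shared at least 1 bp gave 83 regions at these loci, of 52251 in all. The genes were chosen by their place in the pathway with earlier results of these libraries known, and Ltbp1 was selected on measured values, namely that a peak at an end of Ltbp1 was called in the Ctrl libraries and in none of the FGR libraries. The presence of peaks by group is therefore a description, and no test of the Ltbp1 difference is reported as evidence for it.

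The samples were 4 FGR and 4 Ctrl libraries of hippocampal microglia, the macrophages that live in brain tissue, at 3 weeks after birth. FGR is the label of the growth-restricted mice, and Ctrl that of the controls. Mice of both groups carried 1 copy of a Tmem119-tdTomato reporter, a red fluorescent protein under a gene that marks microglia. The sources used here do not give how growth was restricted, the sex of the mice, how many mice stand behind a library or whether libraries came from separate mice. P-values therefore measure only the spread between these libraries, which may be technical. ATAC-seq, the assay used, cuts open DNA with a transposase that leaves sequencing adapters behind, so that accessible sites gather reads and are called as peaks. In a mixed population, fewer cells with an open site and a less open site in every cell cannot be told apart.

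The FGR lists held 23327 to 29501 peaks and the Ctrl lists 10862 to 24195. Read depth is not in the files, and list length is the nearest measure of what each library could show. Ctrl replicates 1 and 2 stood apart, with median peak widths of 566 and 522 bp against 353 to 386 bp in the other 6 libraries. Between their summits, the points of highest signal in a peak, and those of the other 6 libraries the median distance was 135 to 137 bp. FGR replicates 1 and 3 had the same summit base in 9.26% of their shared regions, and FGR replicates 2 and 4 in 7.73%, against 1.75% to 2.12% in the other 13 pairs that did not involve Ctrl replicates 1 or 2. Ctrl replicates 1 and 3, and 2 and 4, had summits exactly 200 bp apart in 1.16% and 0.946% of shared regions, the highest such shares. Means are accordingly given over n = 2 pairs per group, replicates 1 with 3 and 2 with 4. An SD over pairs leaves out the spread between the libraries within a pair. Of 12 microglial marker genes, including Tmem119, Cx3cr1 and Sall1, 11 to 12 had a peak within 1 kb of a gene end in FGR libraries and 6 to 11 in Ctrl libraries. Markers of neurons, astrocytes, the oligodendrocyte lineage and lymphocytes had at most 1 member with such a peak in any library. In these lists Prox1 and the myelin gene Mbp each had one in 2 FGR and 2 Ctrl libraries, and Cd79a in 0 FGR and 2 Ctrl libraries. Tubb3, Aldh1l1 and Cd79b each had one in 1 FGR and 0 Ctrl libraries, and Slc1a2 in 0 FGR libraries and 1 Ctrl library. The other genes of these lists, among them Rbfox3, Snap25, Gfap, Aqp4 and Mog, had none. Endothelial and mural markers had 2 of 6 in FGR libraries and 1 to 2 of 6 in Ctrl libraries, monocyte and neutrophil markers 1 of 6 in FGR libraries and 0 to 1 of 6 in Ctrl libraries, and border macrophage markers 1 to 2 of 6 in FGR libraries and 0 to 1 of 6 in Ctrl libraries. In these 3 lists Kdr had such a peak in 4 FGR and 4 Ctrl libraries, Cbr2 in 4 FGR and 3 Ctrl libraries, Flt1 and Csf3r each in 4 FGR libraries and 1 Ctrl library, Mrc1 in 1 FGR and 0 Ctrl libraries and Cdh5 in 0 FGR libraries and 1 Ctrl library. The other 12 genes of these lists, among them Cldn5, Pecam1, Lyve1, Pf4 and Ccr2, had none. The part of these few peaks in the values at the 10 loci was not tested.

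TGF-beta is made as a latent complex, in which a propeptide holds the ligand inactive and a partner protein tethers it to the matrix or to a cell surface. Once released, the ligand brings together its type II and type I receptors, and the type I receptor phosphorylates Smad2 and Smad3, which enter the nucleus with Smad4 and regulate genes. Smad7 and Ski restrain the pathway. In microglia, TGF-beta signalling is known to be needed for the mature homeostatic state, and NRROS, the product of Nrros, is the partner that presents latent TGF-beta1 on the microglial surface.

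Promoter sequences of 4 of the genes are shown because the results below turn on where their peaks lay. Ltbp1 had 2 annotated starts and a peak at 1 of them. Tgfb1 and Nrros had a region at the start that was missed in a library. At Tgfb1 its peaks reached the window printed here only in FGR replicate 2 and Ctrl replicates 1 and 4. The start of Ski lay beside a peak and not under it. Each sequence runs 5′ to 3′ from 250 bases before to 50 bases after an annotated transcription start, and comes from RefSeq on GRCm38.p6. Capitals mark matches, on either strand, to GTCTG, a short Smad half-site, to GGCGCC, a GC-rich Smad site, or to GGGCGG, the GC box.
Ltbp1 upstream start, chr17:75005279-75005578, plus strand: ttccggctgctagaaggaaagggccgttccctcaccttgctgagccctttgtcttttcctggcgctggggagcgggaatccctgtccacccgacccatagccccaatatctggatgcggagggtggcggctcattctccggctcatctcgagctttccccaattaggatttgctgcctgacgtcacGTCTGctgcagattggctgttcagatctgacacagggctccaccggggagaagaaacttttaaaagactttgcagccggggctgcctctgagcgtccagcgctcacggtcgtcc
Ltbp1 downstream start, chr17:75178531-75178830, plus strand: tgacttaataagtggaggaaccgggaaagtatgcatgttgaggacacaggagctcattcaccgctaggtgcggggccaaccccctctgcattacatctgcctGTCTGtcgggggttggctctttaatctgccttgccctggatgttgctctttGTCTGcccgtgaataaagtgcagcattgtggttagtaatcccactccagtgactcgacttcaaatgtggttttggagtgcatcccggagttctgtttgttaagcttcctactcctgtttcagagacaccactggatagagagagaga
Tgfb1, chr7:25686752-25687051, plus strand: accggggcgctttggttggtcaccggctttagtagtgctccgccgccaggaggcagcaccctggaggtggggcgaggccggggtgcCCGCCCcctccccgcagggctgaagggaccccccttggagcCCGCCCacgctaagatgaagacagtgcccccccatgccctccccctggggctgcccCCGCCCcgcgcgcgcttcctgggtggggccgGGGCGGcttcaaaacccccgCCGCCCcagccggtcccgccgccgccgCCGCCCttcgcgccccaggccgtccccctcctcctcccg
Nrros, chr16:32165545-32165844, minus strand: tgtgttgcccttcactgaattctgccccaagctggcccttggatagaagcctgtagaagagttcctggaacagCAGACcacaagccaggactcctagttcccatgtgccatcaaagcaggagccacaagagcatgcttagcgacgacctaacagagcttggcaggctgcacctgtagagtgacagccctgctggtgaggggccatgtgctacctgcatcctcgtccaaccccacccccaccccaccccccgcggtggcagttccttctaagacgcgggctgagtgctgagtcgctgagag
Ski, chr4:155222486-155222785, minus strand: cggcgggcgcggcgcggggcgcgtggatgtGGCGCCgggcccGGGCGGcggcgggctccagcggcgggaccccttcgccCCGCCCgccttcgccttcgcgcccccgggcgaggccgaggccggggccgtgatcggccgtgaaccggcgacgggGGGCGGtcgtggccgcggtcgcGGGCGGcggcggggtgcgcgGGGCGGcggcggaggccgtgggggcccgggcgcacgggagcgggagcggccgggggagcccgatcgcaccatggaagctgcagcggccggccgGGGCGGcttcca

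Promoter windows were found for 7 of the 10 genes, 9 windows in all. The half-site GTCTG occurred once in the upstream Ltbp1 window, at bases -64 to -60 from the start, and 2 times in the downstream one. Among 21263 promoter windows of protein-coding genes 48.4% hold it, so holding it is common. It was also found once in the windows of Nrros, Tgfbr2 and the second start of Tgfbr1, and in none of Tgfb1, Smad3, Ski and the first start of Tgfbr1. The GC box, present in 46.2% of all windows, occurred 6 times each at Tgfb1 and Ski and 2 times each at Smad3 and the first start of Tgfbr1. GGCGCC, in 15.3% of windows, occurred once at Ski and once at the first start of Tgfbr1. GGAAGT, the core letters bound by the myeloid factor encoded by Spi1, is in 24.8% of windows and occurred once, at the second start of Tgfbr1. TGANTCA, the AP-1 motif, is in 6.99% and occurred in none of the 9. No match overlapped a match to another of these motifs. The Ski window was the richest in CpG among them, with 59 CpG and 85.3% G or C, above nearly all windows on both measures. The median window held 25 CpG where a peak was called in all 8 libraries and 4 where none was called.

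Ltbp1 encodes a latent TGF-beta binding protein that tethers the latent complex to the extracellular matrix. Its locus was nearly bare, with 1 region in 427 kb, or 0.234 per 100 kb, at percentile 21.7 among all genes. That region (chr17:75005541-75006548) begins 12 bp inside the transcript from the upstream start. It was called in 0 of 4 FGR libraries and 4 of 4 Ctrl libraries. In Ctrl replicates 1 to 4 its deposited −log10 q, the caller's measure of confidence, was 4.07, 3.18, 5.64 and 4.78, and its percentile of −log10 q within each list was 15.2, 9.48, 32.7 and 30.7. The peak was thus among the weaker peaks of every Ctrl list. Summits lay 210, 252, 491 and 684 bp downstream of the start in Ctrl replicates 1 to 4, so that only the peak of Ctrl replicate 1 reached into the 300 bases printed above. At the downstream start, well inside the gene, no library had a peak.

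No library of either group had another peak close by. The nearest one lay 117 kb from the region in FGR replicate 1 and 287 to 288 kb from it in FGR replicates 2 to 4. In the Ctrl libraries the nearest other peak lay 288 kb from it in replicates 1, 3 and 4 and 436 kb from it in replicate 2. Long loci without FGR peaks occurred elsewhere, as 41 of the 375 genes with a locus at least as long as that of Ltbp1, or 10.9%, had no peak in any FGR library. Across all regions 0.0268% were called in 4 Ctrl and 0 FGR libraries, and 0.0228% of genes had this pattern at a gene end. The other genes with the identical pattern over the 8 libraries were Fhl3, Reep4, Recql4 and Slc25a53. With peaks of −log10 q of at least 5 alone, the Ltbp1 peak was left in 0 FGR libraries and in Ctrl replicate 3 only. With each list cut to its 10862 strongest peaks, it was left in 0 FGR libraries and in Ctrl replicate 2 only. The list of Ctrl replicate 2 holds 10862 peaks and was not shortened, so that its peak stayed was fixed by the setting.

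**Figure D1:**
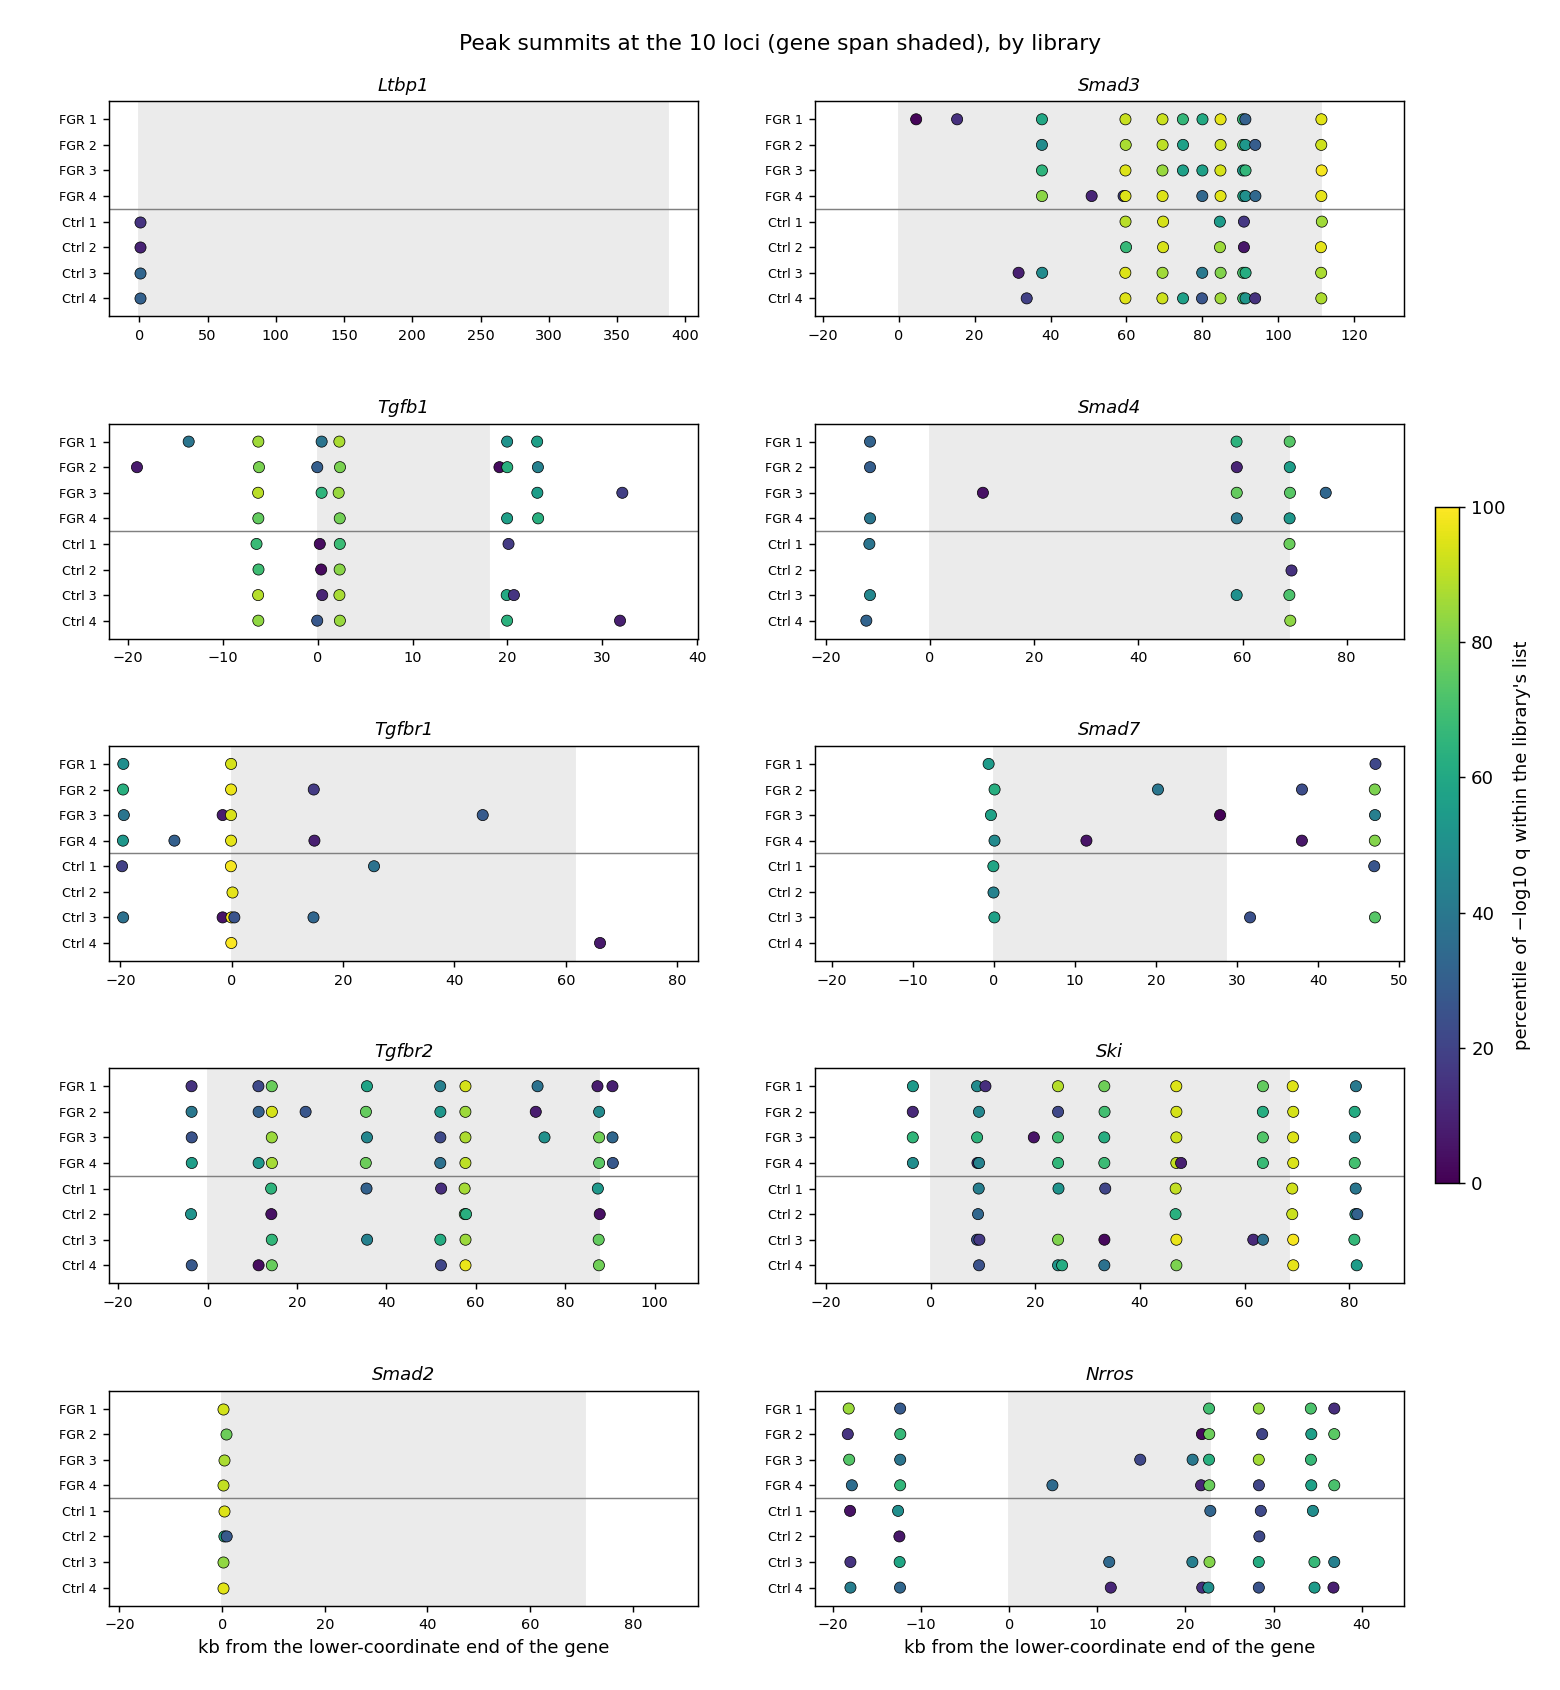
Summits of the peaks called at each of the 10 loci, with FGR libraries above Ctrl libraries, by distance in kb from the lower-coordinate end of the gene, and with the gene span shaded. Colour gives the percentile of −log10 q within the library's own list. Most columns of points run through both groups, and the single column at Ltbp1 is present in the 4 Ctrl libraries.

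Tgfb1, the gene of the ligand TGF-beta1 that microglia use, lay in a crowded stretch of chromosome 7 with 10 regions in 58.1 kb, or 17.2 per 100 kb, at percentile 98.8 among all genes. The region at its start (chr7:25686808-25687552) was called in 3 FGR and 4 Ctrl libraries. Its percentile was 38.7, 29.9 and 65.0 in FGR replicates 1 to 3, with no peak in FGR replicate 4, and 3.45, 2.58, 10 and 27.0 in Ctrl replicates 1 to 4. The 3 FGR values lay above all 4 Ctrl values, while the library without a peak was also an FGR library. These peaks were not all at the same site. Summits lay at 407, -55 and 403 bp from the start in FGR replicates 1 to 3, and at 211, 356, 468 and -59 bp in Ctrl replicates 1 to 4. The peak of FGR replicate 2 did not overlap those of FGR replicates 1 and 3. A stronger region 1944 bp into the gene (chr7:25688946-25689703) was called in all 8 libraries, at percentiles of 78.9 to 87.3 in FGR and 68.3 to 86.7 in Ctrl, which overlap. The region with the highest median percentile at this locus thus lay downstream of the start and outside the printed promoter. In the flank, a region near an end of the neighbouring gene Ccdc97 (chr7:25710038-25710431) was called in 4 FGR and 0 Ctrl libraries, a pattern shared by 0.869% of all regions. Its percentile was 56.0, 43.4, 55.3 and 63.0 in FGR replicates 1 to 4. Of the 10 regions, 5 lay within 1 kb of an end of another gene, so that the locus count is not one of Tgfb1 alone.

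Nrros had the densest locus of the 10, with 11 regions in 62.8 kb, or 17.5 per 100 kb (percentile 98.9). The region over its start (chr16:32165156-32165846) was called in 4 FGR and 3 Ctrl libraries. Percentiles were 69.7, 77.7, 63.0 and 77.0 in FGR replicates 1 to 4 and 32.2, 81.6 and 49.7 in Ctrl replicates 1, 3 and 4, and the Ctrl values enclose the FGR values. A region 5.27 kb upstream of the gene (chr16:32170865-32171572) was called in all 8 libraries at very unequal percentiles. FGR replicates 1 and 3 had it at percentiles 84.2 and 85.99, FGR replicates 2 and 4 at 20.1 and 20.7, Ctrl replicate 3 at 61.7, and Ctrl replicates 1, 2 and 4 at 22.3, 22.2 and 25.5. The high and low FGR values fall on the library pairs that share summits. The peak of FGR replicate 2 (chr16:32171373-32171572) did not overlap those of FGR replicate 3 or Ctrl replicates 2, 3 and 4, so these values are not all from the same site. A further region, 12.2 kb beyond the other end of the gene (chr16:32130069-32130633), was called in all 8 libraries at 28.2 to 66.9 in FGR and 6.56 to 59.1 in Ctrl.

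Tgfbr1 and Tgfbr2 encode the type I and type II receptors. The first start of Tgfbr1 (chr4:47352650-47353829) had a strong peak throughout, at percentiles of 93.7 to 97.1 in FGR libraries and 95.7 to 99.2 in Ctrl libraries. No library had a peak over its second start. The other 7 regions at Tgfbr1 were called in 1 to 6 libraries each. Tgfbr2 had a weaker and more variable peak at its start (chr9:116174506-116175592), at 7.67, 47.4, 78.4 and 74.5 in FGR replicates 1 to 4 and at 53.3, 4.11, 76.0 and 78.3 in Ctrl replicates 1 to 4. Each group held both low and high values there. Its strongest region lay inside the gene, 29.5 kb from the start (chr9:116144957-116145822), at 85.3 to 93.4 in FGR and 74.2 to 96.5 in Ctrl, and a second (chr9:116101745-116102319) was also called in all 8 libraries, at 77.3 to 93.7 in FGR and 4.42 to 76.7 in Ctrl, with every FGR value above every Ctrl value. A small region 2.87 kb upstream of the start (chr9:116178228-116178464) was called in 3 FGR and 0 Ctrl libraries, at 8.61 to 32.9, and in no library at −log10 q of at least 5.

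The Tgfbr2 locus held 9, 9, 8 and 8 peaks in FGR replicates 1 to 4, against 5, 5, 5 and 6 in Ctrl replicates 1 to 4. The groups do not overlap, a pattern that 2.23% of all loci showed with FGR higher and 0.0183% with Ctrl higher. Lists were longer in FGR on average. These shares cover all 21887 loci, of which 8037 averaged 2 peaks or more. They are not shares among loci with counts like those of Tgfbr2. Divided by list length, the locus held 3.23 ± 0.314 peaks per 10000 peaks in FGR and 3.10 ± 0.628 in Ctrl (SD, n = 2 pairs). On that scale the log2 difference was 0.06 ± 0.21 (SE, limma adjusted p = 0.874), smaller than its error. With unscaled counts it was 0.65 ± 0.09 (SE, limma adjusted p = 0.0934), and it did not pass there either.

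Smad2 and Smad3, the receptor-activated Smads, were unlike in the number of regions they held. Smad2 had a single region, over its lower-coordinate end (chr18:76240902-76242468), in 111 kb, and it was called in all 8 libraries at 77.5 to 93.1 in FGR and 62.4 to 95.6 in Ctrl. Smad3 had 15 regions in 151 kb, the most of the 10 genes, of which 5 were called in all 8 libraries and 4 of those lay over 1 kb from every gene end. The region over the Smad3 start (chr9:63757773-63758646) stood at 92.5 to 98.6 in FGR and 85.8 to 95.8 in Ctrl. Inside the gene, regions 26.1, 41.2 and 51.0 kb from the start were nearly as strong. The first of these (chr9:63731277-63731869) had 96.1, 92.2, 93.5 and 95.5 in FGR replicates 1 to 4 and 54.5, 85.3, 81.0 and 85.6 in Ctrl replicates 1 to 4, so every FGR value lay above every Ctrl value. Ranks in lists of different lengths do not measure a change between groups. The second (chr9:63716037-63716757) had 84.7 to 94.8 in FGR and 85.9 to 93.8 in Ctrl, and the third (chr9:63706102-63707008) 87.3 to 94.9 in FGR and 67.1 to 95.1 in Ctrl, both overlapping. The last of the 4 (chr9:63737365-63738324) was weaker, at 59.5 to 70.9 in FGR, and at 16.3, 6.17, 72.1 and 71.0 in Ctrl replicates 1 to 4. Its low values were those of Ctrl replicates 1 and 2. The value of FGR replicate 3, 65.7, came from a peak (chr9:63737960-63738310) that did not overlap the strongest peaks of FGR replicates 1, 2 and 4 or Ctrl replicates 3 and 4. Where those lay, FGR replicate 3 had a weaker peak (chr9:63737393-63737761), at 54.5. Another intragenic region (chr9:63684248-63684654) was called in 4 FGR libraries, at 48.2 to 82.7, and in Ctrl replicate 3 alone among the Ctrl libraries, at 48.0.

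Smad4, the common partner of the activated Smads, had a region over its higher-coordinate end (chr18:73703174-73704270) in all 8 libraries, at 73.8, 55.4, 74.0 and 53.0 in FGR replicates 1 to 4 and 77.0, 14.2, 71.6 and 83.0 in Ctrl replicates 1 to 4. The FGR values again came in the pairs 1 with 3 and 2 with 4, and Ctrl replicate 2 was lowest of the 8. An intragenic region 9.74 kb away from that end (chr18:73693497-73694050) was called at 64.3, 10.1, 76.2 and 40.3 in FGR replicates 1 to 4 and at 49.7 in Ctrl replicate 3, with no peak in the other 3 Ctrl libraries. Smad7, the inhibitory Smad that TGF-beta itself induces, was called at its lower-coordinate end in all libraries but Ctrl replicate 4, at 47.3 to 62.8 in FGR and 44.0 to 58.7 in the 3 Ctrl libraries. Ctrl replicate 4 had no peak anywhere in the Smad7 locus, although its list was the longest of the Ctrl lists. Beyond the gene, a region 18158 bp from its end and nearer to Ctif (chr18:75414093-75414620) had 21.6, 80.1, 42.9 and 81.5 in FGR replicates 1 to 4 and 26.5 and 73.5 in Ctrl replicates 1 and 3. Both Ctrl values lay inside the FGR range.

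**Figure D2:**
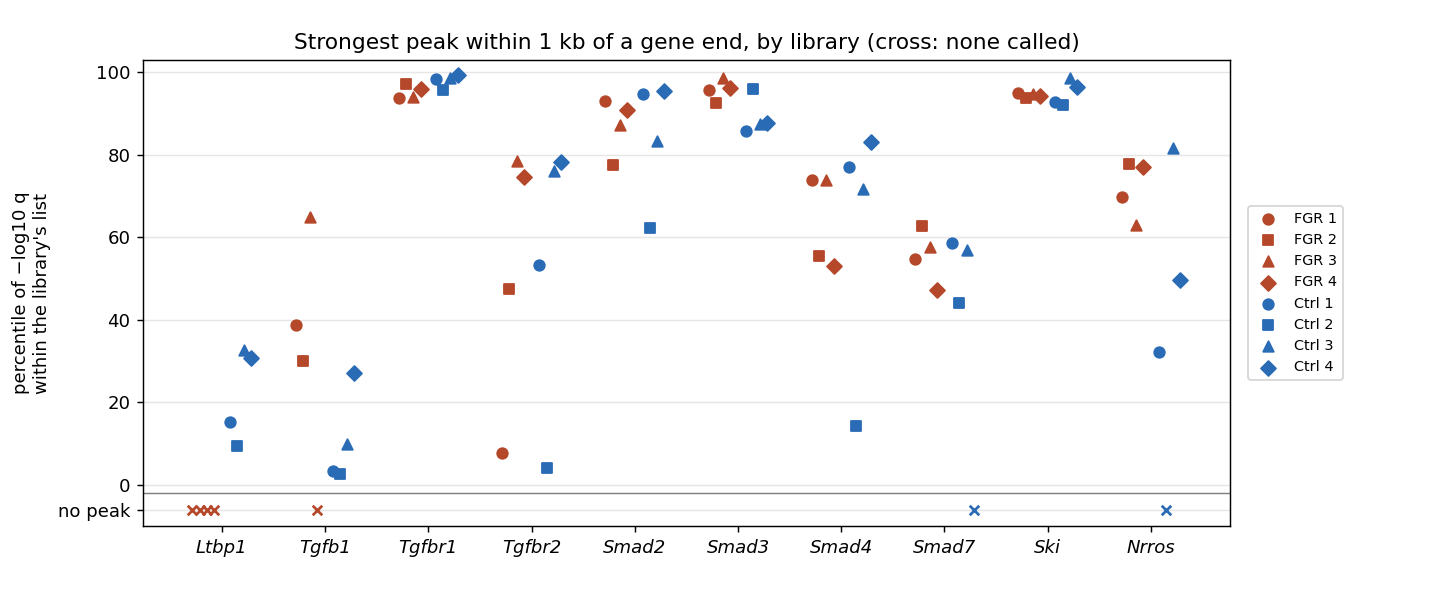
Percentile of −log10 q, within the library's own list, of the strongest peak within 1 kb of either end of each gene, with FGR libraries left of Ctrl libraries. A cross marks a library with no such peak. Tgfbr1, Ski and Smad3 lie above 85 in every library, Tgfb1 spans 29.9 to 65.0 in 3 FGR libraries and 2.58 to 27.0 in Ctrl libraries, and Ltbp1 has crosses for all 4 FGR libraries.

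Ski encodes a co-repressor that binds Smads and blocks their activity. Its locus held 13 regions in 108 kb, and 4 were called in all 8 libraries. No library had a peak over the printed promoter window. The nearest region (chr4:155222941-155223716) lay 406 bp upstream of the start, with summits between -843 and -740 bp from the start in the 6 libraries other than Ctrl replicates 1 and 2, where they lay at -649 and -646 bp. It was strong in both groups, at 93.7 to 95.1 in FGR and 91.9 to 98.6 in Ctrl. Of the regions inside the gene, the strongest (chr4:155200676-155201494) had 90.8 to 94.8 in FGR and 63.5 to 96.5 in Ctrl. A weaker one, 8.62 kb from the other end (chr4:155162692-155163574), had 47.9, 46.2, 64.8 and 44.3 in FGR replicates 1 to 4 and 42.3, 33.1, 26.1 and 25.2 in Ctrl replicates 1 to 4. These FGR values lay above the Ctrl values, but each is the strongest peak of its library in the region, and these peaks did not all overlap. FGR replicate 4 also had a weaker peak there (chr4:155162944-155163143), at 10.7, which lay below the overlapping peak of Ctrl replicate 3, at 26.1. Upstream, 12163 bp from the start, a region (chr4:155234698-155236052) was called in all 8 libraries at 40.5 to 70.1 in FGR and 39.3 to 66.5 in Ctrl. Beyond the other end of the gene, 3.11 kb away, a region (chr4:155150507-155150969) was called in 4 FGR and 0 Ctrl libraries, at 54.1, 11.6, 65.8 and 48.5 in FGR replicates 1 to 4. An intragenic region 4.71 kb from the start (chr4:155217404-155217824) had 75.8, 62.0, 72.7 and 67.9 in FGR replicates 1 to 4 and 37.0 in Ctrl replicate 3, with no peak in the other 3 Ctrl libraries. With lists of equal length this region was called in 4 FGR and 0 Ctrl libraries, whereas the region 3.11 kb beyond the gene was left in 1 FGR library.

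Over all 10 loci, 19 of the 83 regions were called in all 8 libraries and 30 in a single library, against 16.9% and 45.9% of all regions. The 19 had median percentiles between 23.9 and 96.5, and 12 of them lay over 1 kb from every gene end. Every FGR percentile lay above every Ctrl percentile at 3 of the 19, those of Tgfbr2, Smad3 and Ski named above, against 9.9% of all regions called in 8 libraries, and the reverse held at 0, against 0.632%. At the Ski region these percentiles came from peaks that did not all overlap. More FGR than Ctrl libraries called 48 of the 83 regions, and more Ctrl than FGR libraries called 12, against 58.6% and 17.8% of all regions. The balance at these genes was thus near that of the whole series, in which FGR lists were longer on average. Presence was higher by 3 or 4 libraries in FGR at 6 regions and in Ctrl at 1, against 4.33% and 0.216% of all regions. The 6 are the regions of Tgfb1, Tgfbr2, Smad3, Smad4 and Ski described above, and the 1 is that of Ltbp1. Another 9 regions differed by 2 libraries and lay just outside this limit, among them 4 of Tgfbr2, and 1 of Nrros (chr16:32154042-32154621) that was called in 0 FGR libraries and 2 Ctrl libraries. Regions called in 4 FGR and 0 Ctrl libraries occurred at 2 of the 10 loci, against 2.56% of all loci. Without Ctrl replicates 1 and 2 there were 2 regions in every FGR library and no Ctrl library, and 2 in every Ctrl library and no FGR library. Without Ctrl replicate 3 there were 5 regions in every FGR library and no Ctrl library.

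Of the 10 genes, 6 had a peak near a gene end in all 8 libraries, namely Tgfbr1, Tgfbr2, Smad2, Smad3, Smad4 and Ski, against 31.9% of all protein-coding genes. The other 4 were missed in FGR replicate 4 (Tgfb1), in Ctrl replicate 2 (Nrros), in Ctrl replicate 4 (Smad7) and in the FGR libraries (Ltbp1). Of the 10 genes, 8 to 9 had one in FGR libraries and 9 to 10 in Ctrl libraries, while of all 21887 genes 9791 to 10605 had one in FGR libraries and 7614 to 10570 in Ctrl libraries.

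**Figure D3:**
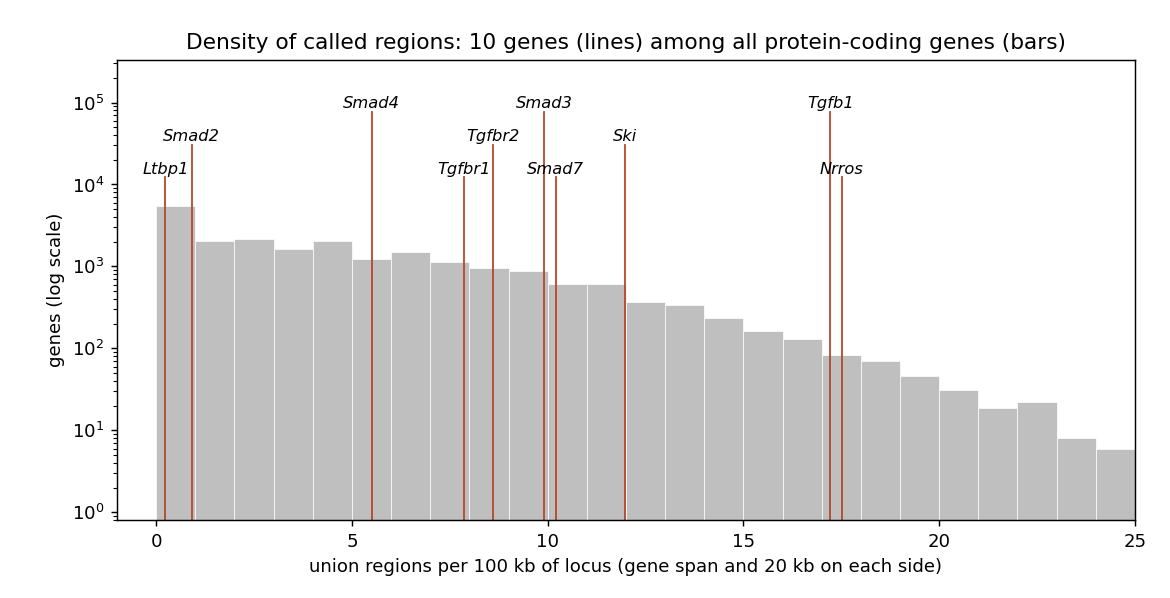
Density of called regions, in regions per 100 kb of locus, for the 10 genes (red lines) among 21887 protein-coding genes (grey bars, log scale), drawn up to 25. Ltbp1 and Smad2 lie in the lowest bar at 0.234 and 0.904, and Tgfb1 and Nrros lie far to the right at 17.2 and 17.5, against a median of 3.74.

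Peak numbers per 10000 did not differ between the groups beyond the threshold of the fit at any of the TGF-beta loci tested. The limma fit covered the 8037 loci that averaged 2 peaks or more, on a log2 scale of peaks per 10000 with a pseudocount of 0.5, and 8 of the 10 loci could be tested. Ltbp1 and Smad2 fell under that mean, with 0 peaks in each FGR library and 1 in each Ctrl library at Ltbp1, and 1 peak in every library at Smad2 except 2 in Ctrl replicate 2. None of the 8 passed, with limma adjusted p between 0.391 and 0.915, and 0 had an unadjusted p under 0.05. Over all loci limma called 0.0124% higher and 0.0% lower in FGR, and 2.6% and 15.6% had an unadjusted p under 0.05 in these directions. Differences were above 0 at 3 loci and below 0 at 5, with a median of -0.13 on the log2 scale, against -0.28 over all loci tested. Without division by list length the median over all loci was 0.31, and all 8 differences were above 0, so a sign at these loci depends on the scaling. The 8 libraries entered singly, although those that share summits may not be independent, so p-values may be too small. With such libraries averaged as pairs, limma again called 0 of the 8 loci.

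The farthest from 0 was Smad7, with 2, 4, 3 and 4 peaks in FGR replicates 1 to 4 and 2, 1, 3 and 0 in Ctrl replicates 1 to 4, which differ by 0.60 ± 0.44 on the log2 scale of peaks per 10000 (SE, adjusted p = 0.391 in limma). It rests on Ctrl replicate 4, without which it was -0.11 (limma adjusted p = 0.804). Tgfbr1 had 1.23 ± 0.254 peaks per 10000 in FGR and 1.45 ± 0.819 in Ctrl (SD, n = 2 pairs), which differ by -0.26 ± 0.28 on the log2 scale (SE, adjusted p = 0.565 in limma). Tgfb1 had 2.11 ± 0.221 in FGR and 2.38 ± 0.0507 in Ctrl, which differ by -0.25 ± 0.23 (SE, adjusted p = 0.499 in limma). The 5 remaining loci, Nrros, Ski, Smad3, Smad4 and Tgfbr2, lay between -0.18 and 0.06. Smad3 had the highest count, with 11, 9, 9 and 11 peaks in FGR replicates 1 to 4 and 5, 5, 9 and 10 in Ctrl replicates 1 to 4. Its Ctrl replicates 3 and 4 fell within the FGR range and its Ctrl replicates 1 and 2 below it.

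**Figure D4:**
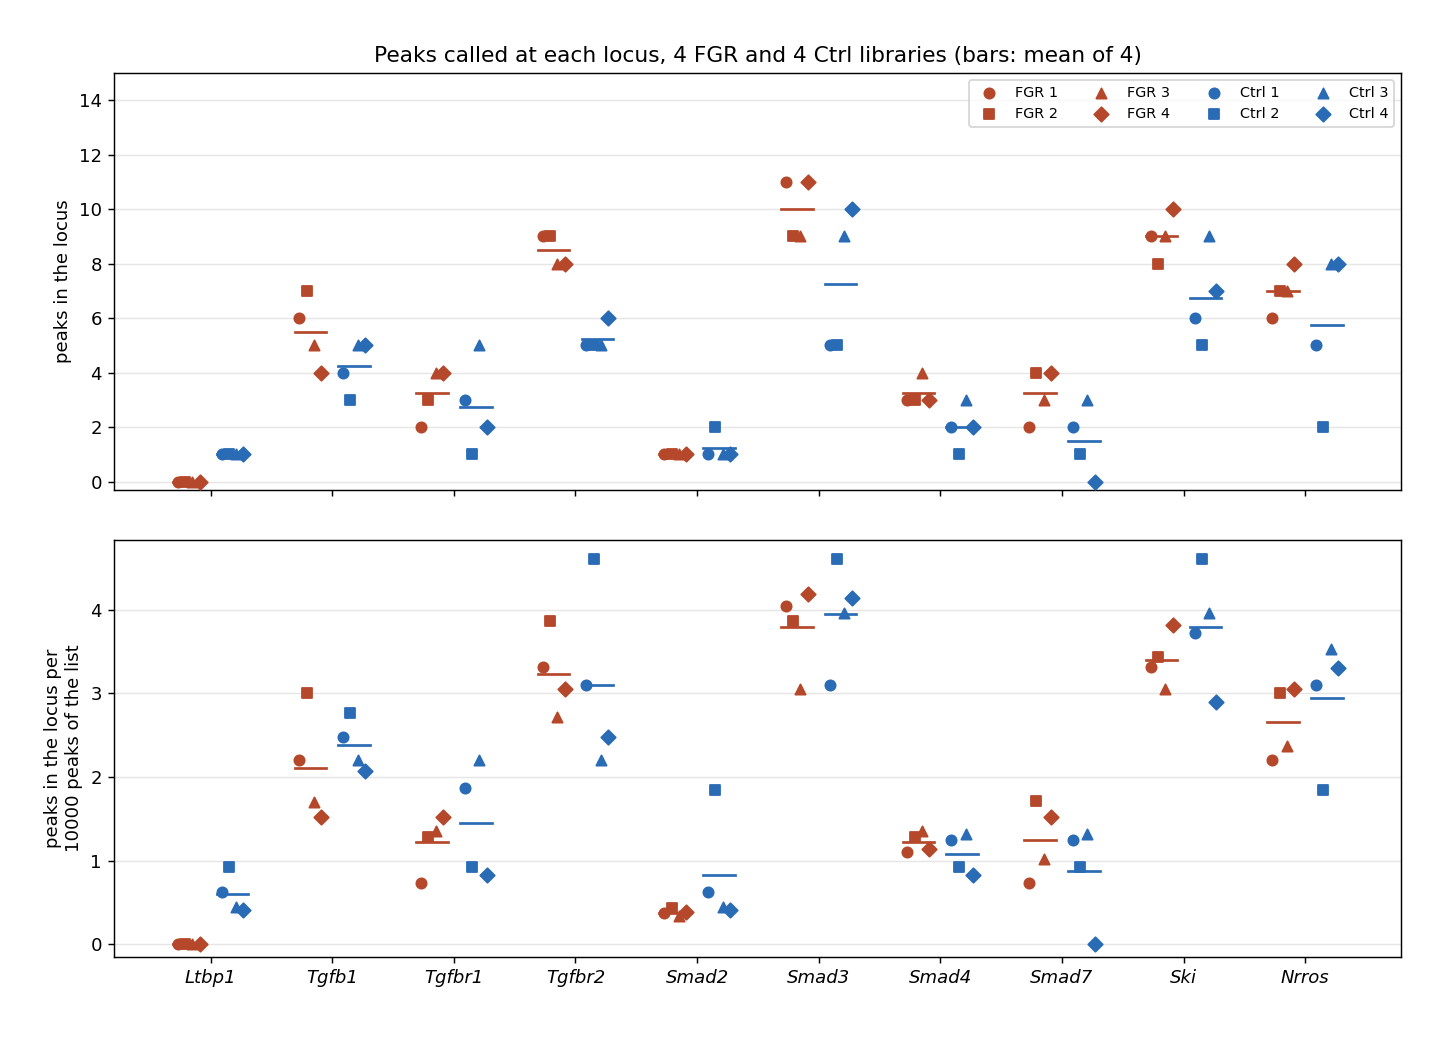
Peaks called in each locus (upper panel) and peaks per 10000 peaks of the list (lower panel), FGR libraries left of Ctrl libraries, with a symbol for each replicate and a bar at the mean of 4. At Tgfbr2 the unscaled FGR counts of 8 to 9 lie above the Ctrl counts of 5 to 6, and after scaling the groups overlap.

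Other genes of the pathway were read in 4 lists of 46 genes. Of the 11 ligand and latency genes, 0 had a peak near an end in all 8 libraries, 6 had one in some libraries and 5 in none, and of all 21887 genes 9227 had one in none. Those 5 were Tgfb2, which encodes another TGF-beta ligand, the latent binding protein genes Ltbp3 and Ltbp4, and the integrin genes Itgav and Itgb6. Among the other lists, 8 of 11 receptor genes and receptor partners, 13 of 14 other Smads, repressors and regulators, and 7 of 10 target genes had a gene-end peak in all 8 libraries. The targets included Sall1, a transcription factor gene of microglial identity. The genes whose gene-end presence was higher by 3 or 4 libraries in FGR were 2 of the 46, against 1.21% of all genes, and 0 were higher in Ctrl, against 0.174%. They were Eng, which encodes the co-receptor endoglin and is also active in endothelium, and Furin, which encodes the protease that cleaves the TGF-beta precursor, each with a peak in 4 FGR libraries and 1 Ctrl library. The endothelial marker Flt1 had the same counts at its ends, with a mean of 5.25 locus peaks in FGR and 1.5 in Ctrl, and its part in the values at Eng was not tested. At Eng the locus held 4, 8, 4 and 7 peaks in FGR replicates 1 to 4 and 1, 1, 4 and 4 in Ctrl replicates 1 to 4, which differ by 0.62 ± 0.28 on the log2 scale (SE, adjusted p = 0.235 in limma). A region called in 4 FGR and 0 Ctrl libraries occurred at 1 of the 46 loci, inside Acvr1, an activin type I receptor gene (chr2:58497062-58497368), at percentiles of 24.6 to 57.4. None of the 30 pathway loci tested passed in limma, where the unadjusted p was under 0.05 for 1 that was higher in FGR and for 3 that were lower.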

How the data were processed

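Per the labels, libraries were made with the Vazyme Hyperactive ATAC-Seq kit. The submitters' processing notes name the peak caller MACS2 (version 2.2.7.1), the aligner Bowtie2 (2.4.5), the read trimmer Trim Galore (0.6.5), the alignment toolkit SAMtools (1.3.1) and the R package DiffBind (3.12.0), with mm10 as build and no roles or settings. The sources used here do not say whether reads were shifted, duplicates removed or blacklisted sites dropped, and each could move summits or add and drop peaks. The authors deposited 1 peak list per library. Its deposited values are a whole-number score, unused here, a fold (ratio) of the summit over background, and −log10 p and −log10 q. The deposited −log10 q was used to rank peaks within their own list. Its smallest value was 1.31 and the smallest peak width 200 bp. The percentile of a region in a library is that of the library's strongest peak there, and peaks merged into a region need not all overlap each other.

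A peak counts as near a gene end when it lies at most 1 kb from it. Transcription starts came from RefSeq promoter windows (GRCm38.p6), and those of the 3 genes on chromosome 18 were not used here. The two-sided test of peaks per locus was limma (version 3.58.1, R 4.3.3) with a mean-variance trend, and Benjamini-Hochberg adjustment covered all 8037 loci at a threshold of 0.05. The script was tested on simulated data. Tables and plots came from pandas 2.3.3, numpy 2.4.6 and matplotlib 3.10.9 under Python 3.11.15. The genes, gene lists and tests were chosen with earlier results of these data known. Named are the 10 genes, other pathway genes with presence differing by 3 or 4 libraries, a limma call or a region separating the groups, and regions that differ by 3 or 4 libraries, lead their locus or are in all 8 libraries over 1 kb from gene ends (at most 3 per locus). The region of Smad3 at chr9:63737365-63738324 and the marker genes were named outside this rule, after their values were seen.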

Additional observations from a re-analysis of the deposited data

Results flagged for a closer look

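In 59 groups of 4 libraries at these loci and named regions, 5 had a highest or lowest library set apart from the other 3 by a gap beyond Dixon's critical value, where chance alone gives about 1 in 20. All 5 were Ctrl libraries, and 4 of them were Ctrl replicate 1 or 2, which stood apart in peak shape. At the Smad2 locus Ctrl replicate 2 had 1.84 peaks per 10000, the highest of its group, from 2 peaks in the shortest list. Ctrl replicate 2 was also the lowest of its group at the intragenic region of Tgfbr2 at chr9:116101745-116102319, at percentile 4.42, and at the end of Smad4, at percentile 14.2. Ctrl replicate 1 was the lowest at the Smad3 region at chr9:63731277-63731869, at percentile 54.5. Ctrl replicate 3 was the highest at the region upstream of Nrros, at percentile 61.7.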

How the results depend on the processing

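The files hold called peaks without reads, so a missing peak is one under the caller's threshold and not a closed site. FGR lists were longer on average, although the list of Ctrl replicate 4 was longer than that of FGR replicate 2. The 10 loci hold few peaks each, which limits what a count can show.

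Of the 8 loci tested, 0 were called by limma. With no filter on low counts all 10 were tested, and 1 was called. That 1 is Ltbp1, chosen for this very difference, so the call carries no evidence. The count was 0 in the other settings run, in which 4 to 8 of the 10 loci could be tested. The median log2 difference of -0.13 became 0.46 with unscaled counts, 0.11 with −log10 q of at least 5 and 0.24 with lists of equal length, and lay between -0.14 and -0.03 when a library was left out. The 1 region called in 4 Ctrl and 0 FGR libraries became 0 with −log10 q of at least 5, 0 with equal lists, 0 with 200 bp around summits, 2 without Ctrl replicates 1 and 2, and 2 with replicates 3 and 4 alone, and it was 1 to 1 when a library was left out. The 2 regions called in 4 FGR and 0 Ctrl libraries became 1 with −log10 q of at least 5 and 1 with equal lists, and 2 to 5 when a library was left out. Genes with a gene-end peak in every library were 6, but 4 with −log10 q of at least 5, 4 with equal lists and 5 with a window of 500 bp, and 6 to 7 when a library was left out.

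Gene-end presence, as the share of FGR minus the share of Ctrl libraries, turned to -0.50 at Smad7 with equal lists, where it was also -0.50 at Tgfbr2 against 0 in the full lists, and to 0.75 at Tgfb1 with −log10 q of at least 5. Log2 differences changed sign with unscaled counts at Nrros (0.41), Ski (0.42), Smad3 (0.50), Tgfb1 (0.34) and Tgfbr1 (0.32). They did so with −log10 q of at least 5 at Nrros (0.44), Ski (0.11), Smad3 (0.063) and Tgfb1 (0.29), and with equal lists at Nrros (1.04), Ski (0.36), Smad3 (0.24) and Tgfbr2 (-0.28). Tgfbr2 was -0.13 on the gene span alone, and -0.083 to 0.27 when a library was left out, below 0 without FGR replicate 2, Ctrl replicate 3 or Ctrl replicate 4. Smad4 was -0.050 with a pseudocount of 1, and Tgfbr1 0.032 with replicates 3 and 4 alone. Leaving out a library gave -0.081 to 0.114 at Smad4, below 0 without Ctrl replicate 4, -0.11 to 0.86 at Smad7, below 0 without Ctrl replicate 4, and -0.19 to 0.0054 at Smad3, above 0 without FGR replicate 3. None of these passed in limma, and the cause was not tested. Limma adjusted p of the 8 loci tested lay between 0.0934 and 1 over these settings.

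With the replicate number as a block, 0 of the 8 loci tested were called, and the median stayed at -0.13. Over all loci limma called 54 higher and 87 lower in FGR with the block, against 1 and 0 without it. Deviations of same-numbered libraries correlated at -0.0176 to 0.0977 across 8037 loci, so the numbers were not taken as pairs.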
